A study of Mus musculus with 8 samples.

Results

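Metallothioneins and the genes of cellular zinc handling were described in mouse granulosa cells of the PGR-A KO strain, collected 8 h after hCG. The 6 genes were chosen by symbol from the table of 51886 genes: the metallothioneins Mt1, Mt2 and Mt3, the zinc-sensing transcription factor Mtf1, the zinc exporter Slc30a1 and the zinc importer Slc39a10. Libraries came from 4 pools of PGR-A KO mice, which carry a knockout of the PGR-A isoform of the progesterone receptor, and 4 pools of wild-type (WT) mice of the same strain. Each pool held 2 to 3 mice of 21 to 27 days, all given 5 IU eCG and, 46 h later, 5 IU hCG, the hormone that triggers ovulation. The labels do not give the allele or the background strain. Values are TPM, transcript abundance scaled to a fixed total and corrected for length, so levels of different genes can be compared.

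Metallothioneins are small cysteine-rich proteins that bind zinc and copper. When free zinc rises in a cell, the zinc-finger factor MTF1 binds metal response elements in the promoters of Mt1, Mt2 and Slc30a1 and raises their transcription, and in mouse cells it represses Slc39a10. Glucocorticoids, cytokines and oxidative stress are also known to induce Mt1 and Mt2. Mt3 is best known from brain and responds weakly to metals, and Mt4 from stratified epithelia. In the ovary, zinc is known for its part in oocyte maturation and in the zinc-dependent proteases of the follicle wall.

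Mt4, Mt3, Mt2 and Mt1 lie in this order on the plus strand of chromosome 8 within 43131 bases (GENCODE M21, mm10). Mt2 (ENSMUSG00000031762.7, 94172664 to 94173568) ends 5513 bases before Mt1 (ENSMUSG00000031765.8, 94179082 to 94180327). Mt3 (ENSMUSG00000031760.9, 94152607 to 94154146) stands 18517 bases before Mt2. Mtf1 (ENSMUSG00000028890.13) is on chromosome 4, 124802104 to 124849800, plus strand. On chromosome 1 lie Slc30a1 (ENSMUSG00000037434.7, 191906767 to 191913247, plus strand) and Slc39a10 (ENSMUSG00000025986.6, 46807544 to 46892852, minus strand). Transcripts of Mt1, Mt2, Mt3, Mtf1 and Slc30a1 had no match of at least 100 bases at 90% identity in another gene's transcripts. Only matches in the same orientation were searched, so antisense matches could not be found. Slc39a10 aligned to the 339-base Gm6801 transcript over 348 positions, gaps included, at 94.3% identity. Gm6801 was listed at 0 on average. Shorter alignments were found with Gm26885, Mzf1 and Zfp316, whose mean levels were at most 4.51 TPM. An antisense gene, Gm45774, overlaps Mt2. It averaged 0.0866 TPM, and whether the counting used strand is not given in the sources used here.

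The promoter windows of the metal-responsive genes are shown for the letters MTF1 is known to bind. The windows are those of RefSeq (GRCm38.p6), from 250 bases before to 50 after a gene's start, and all 6 genes had at least 1. Capitals mark matches to the core of the metal response element, spelled TGCACNC or TGCGCNC and searched on both strands. Mt1 and Mt2 are shown because their levels moved together, Slc30a1 as the exporter that MTF1 is known to induce, and Mt3 as the family member of lower level.
Mt1 (chr8:94178839-94179138, plus strand): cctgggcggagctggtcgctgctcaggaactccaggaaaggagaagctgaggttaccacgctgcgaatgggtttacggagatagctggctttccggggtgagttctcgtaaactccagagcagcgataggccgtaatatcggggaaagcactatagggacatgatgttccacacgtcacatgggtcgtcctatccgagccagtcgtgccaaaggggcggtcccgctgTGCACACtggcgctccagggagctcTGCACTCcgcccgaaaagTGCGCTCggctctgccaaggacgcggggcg
Mt2 (chr8:94172368-94172667, plus strand): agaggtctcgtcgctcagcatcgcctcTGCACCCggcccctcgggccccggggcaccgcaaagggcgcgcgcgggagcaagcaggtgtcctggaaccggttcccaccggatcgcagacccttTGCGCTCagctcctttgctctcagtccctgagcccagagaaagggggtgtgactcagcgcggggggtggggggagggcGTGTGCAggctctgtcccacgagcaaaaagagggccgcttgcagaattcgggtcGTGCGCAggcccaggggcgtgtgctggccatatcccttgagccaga
Slc30a1 (chr1:191906531-191906830, plus strand): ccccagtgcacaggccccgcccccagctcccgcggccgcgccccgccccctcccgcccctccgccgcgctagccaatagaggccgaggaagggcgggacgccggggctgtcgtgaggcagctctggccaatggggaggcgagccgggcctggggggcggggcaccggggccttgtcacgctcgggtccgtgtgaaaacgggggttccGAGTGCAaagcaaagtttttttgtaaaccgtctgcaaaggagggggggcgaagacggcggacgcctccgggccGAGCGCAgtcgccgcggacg
Mt3 (chr8:94152357-94152656, plus strand): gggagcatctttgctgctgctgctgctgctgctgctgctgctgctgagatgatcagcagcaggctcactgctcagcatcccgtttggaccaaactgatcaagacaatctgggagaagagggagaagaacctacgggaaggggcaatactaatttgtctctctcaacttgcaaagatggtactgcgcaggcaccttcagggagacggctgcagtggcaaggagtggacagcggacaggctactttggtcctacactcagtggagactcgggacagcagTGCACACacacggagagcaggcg

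The Mt2 window held 4 such cores, the Mt1 window 3, the Slc30a1 window 2 and the Mt3 window 1. Of 32817 RefSeq windows of this length, 25.7% held at least 1, 7.12% at least 2, 1.97% at least 3 and 0.518% at least 4. The Mtf1 window and both Slc39a10 windows held 0, which says only that these letters are not in those windows. The RefSeq starts differ from the GENCODE gene starts given above by 7 bases for Mt1, 46 for Mt2, 0 for Mt3 and 14 for Slc30a1, all within the windows. For Mtf1 the RefSeq start lies 445 bases inside the GENCODE gene, and for Slc39a10 the pair of RefSeq starts lie 39234 bases inside and 32924 bases upstream of it, so these windows do not hold the GENCODE start. Positions of matches are counted from the RefSeq start. The Mt1 window also held a match to the palindromic element shared by glucocorticoid and progesterone receptors, starting 94 bases before the start; 0.475% of windows held it. In the Mt2 window the AP-1 element TGANTCA (7.81% of windows) and the antioxidant element TGACNNNGC (12.4%) overlapped, both starting 79 bases before the RefSeq start. TGACNNNGC also matched in the Slc30a1 window, 82 bases before its start. The antioxidant spelling TGAGNNNGC (17.7% of windows) matched in the windows of Mt3, Mtf1 and Slc30a1. It matched at 2 sites in 1 Slc39a10 window (1.92% of windows held at least 2) and at 0 in the other. These matches are a description of letters and not of binding.

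**Figure D1:**
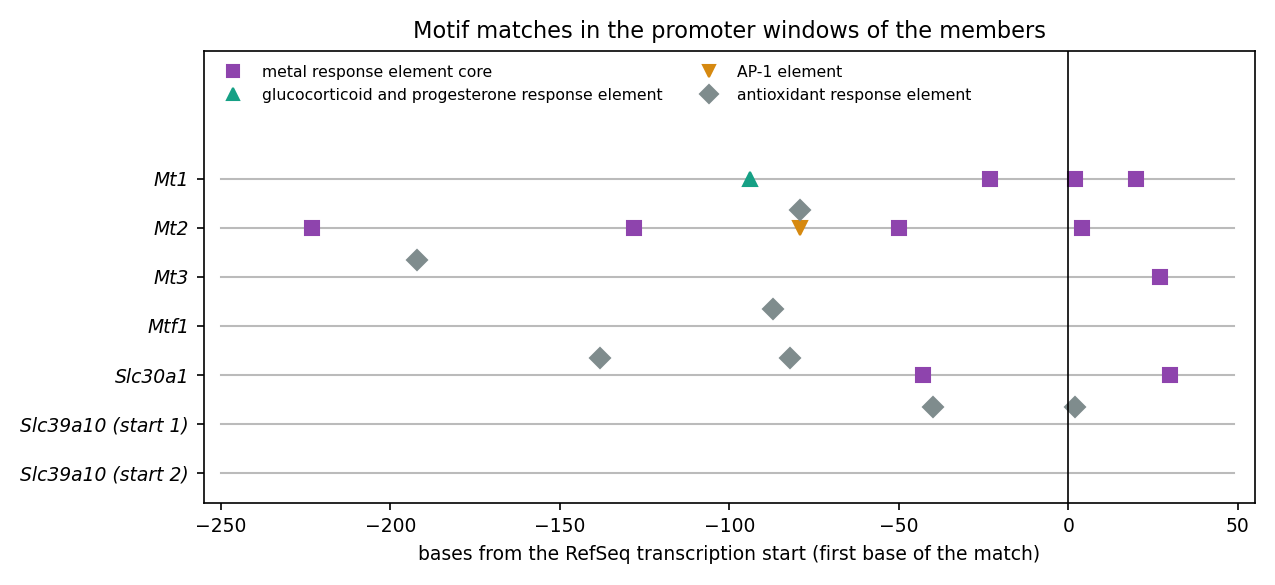
Position of each motif match in the 7 promoter windows of the 6 genes, in bases from the RefSeq start. Each symbol is 1 match, drawn at its first base; squares, the metal response element cores, lie in the Mt1, Mt2, Mt3 and Slc30a1 windows.

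Libraries correlated with each other at 0.970 to 0.991 (Pearson, log2 scale) and none were identical. The 11 granulosa markers were above 0 in every library, with sums of 4608 to 6512 TPM in PGR-A KO and 5669 to 7902 TPM in WT. Of the other marker lists the erythroid one was highest, at 3662 to 6319 TPM in PGR-A KO and 1733 to 11370 TPM in WT. In WT replicate 3 (11370 TPM) it exceeded the granulosa sum (6589 TPM). Oocyte markers summed to 767 to 1368 TPM in PGR-A KO and 556 to 1049 TPM in WT, and macrophage markers to 53.4 to 111 TPM in PGR-A KO and 83.2 to 112 TPM in WT. Pgr was at 2.01 to 3.52 TPM in PGR-A KO and 0.756 to 1.56 TPM in WT. The genotypes did not overlap, as for 0.601% of all genes tested with PGR-A KO higher. The gene-level value of Pgr does not separate the isoforms, so it does not show the loss of PGR-A in the libraries so labelled. On the first principal component, 34.9% of the variance, PGR-A KO replicate 3 (25.8) lay beyond the WT replicates 2 to 4 (3.55 to 20.9), and WT replicate 1 (-21.2) lay with the other PGR-A KO libraries (-20.7 to -10.6). The 6 genes are therefore given with and without these libraries. In bulk samples, fewer cells of a type and less RNA per cell cannot be told apart.

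Mt1 and Mt2 were among the abundant transcripts of these libraries in both genotypes. Averaged over the 8 libraries, Mt2 ranked 129 and Mt1 ranked 147 of 14472 genes tested. Their summed level averaged 1571 ± 401 TPM for PGR-A KO, against 1821 ± 613 TPM for WT (SD, n = 4 each), or 0.158% and 0.183% of all TPM. Mt3 was far lower, at rank 3908, and Mt4 lay under the filter of 1 TPM in at least 4 libraries, at 0.286 to 1.70 TPM in PGR-A KO and 0.186 to 1.51 TPM in WT. All 6 genes chosen passed this filter.

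Mt1 held 948, 785, 524 and 720 TPM in PGR-A KO replicates 1 to 4, against 1177, 737, 666 and 721 TPM in WT replicates 1 to 4. WT replicate 1 was the highest and PGR-A KO replicate 3 the lowest of the 8, and the genotypes overlapped. The log2 change, PGR-A KO minus WT, was -0.14 (SE 0.22, limma adjusted p = 0.940), with a 95% interval from -0.63 to 0.35. The exact 2-sided permutation p over the 70 assignments of libraries was 0.629, where the smallest possible is 0.0286.

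Mt2 held 1067, 856, 518 and 866 TPM in PGR-A KO replicates 1 to 4, against 1549, 907, 724 and 803 TPM in WT replicates 1 to 4. The same libraries stood at either end, and the genotypes again overlapped. The log2 change was -0.25 (SE 0.27, limma adjusted p = 0.909; exact permutation p = 0.514). Its 95% interval ran from -0.87 to 0.37, that is from 0.549 to 1.29 times the WT level on the log2(TPM + 1) scale.

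Mt3 held 41.8, 42.3, 29.7 and 41.7 TPM in PGR-A KO replicates 1 to 4, against 48.6, 32.4, 32.2 and 36.4 TPM in WT replicates 1 to 4. Among PGR-A KO libraries replicate 3 was low, and among WT libraries replicate 1 was high, so the genotypes overlapped. The log2 change of Mt3 was 0.06 (SE 0.16, limma adjusted p = 0.961; exact permutation p = 0.714; 95% interval -0.29 to 0.42).

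Mtf1, which encodes the zinc sensor, held 21.5, 22.1, 19.2 and 18.1 TPM in PGR-A KO replicates 1 to 4, against 18.5, 14.7, 18.1 and 17.8 TPM in WT replicates 1 to 4. PGR-A KO replicates 1 and 2 were the highest of the 8 and WT replicate 2 the lowest, with overlap between the genotypes. The log2 change was 0.22 (SE 0.10), with the lowest unadjusted limma p of the 6 genes, 0.0564 (limma adjusted p = 0.783; exact permutation p = 0.0857). The 95% interval reached from -0.0073 to 0.44.

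Slc30a1, the plasma membrane exporter ZnT1, held 9.60, 8.88, 7.05 and 8.47 TPM in PGR-A KO replicates 1 to 4, against 8.32, 8.86, 8.07 and 6.71 TPM in WT replicates 1 to 4. Slc39a10, the importer ZIP10, held 44.3, 49.5, 40.0 and 40.8 TPM in PGR-A KO replicates 1 to 4, against 42.2, 30.9, 42.3 and 37.7 TPM in WT replicates 1 to 4. Both pairs of groups overlapped. The log2 change was 0.08 for Slc30a1 (SE 0.12, limma adjusted p = 0.936; exact permutation p = 0.429; 95% interval -0.18 to 0.34). For Slc39a10 it was 0.19 (SE 0.11, limma adjusted p = 0.812; exact permutation p = 0.200; 95% interval -0.066 to 0.45).

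**Figure D2:**
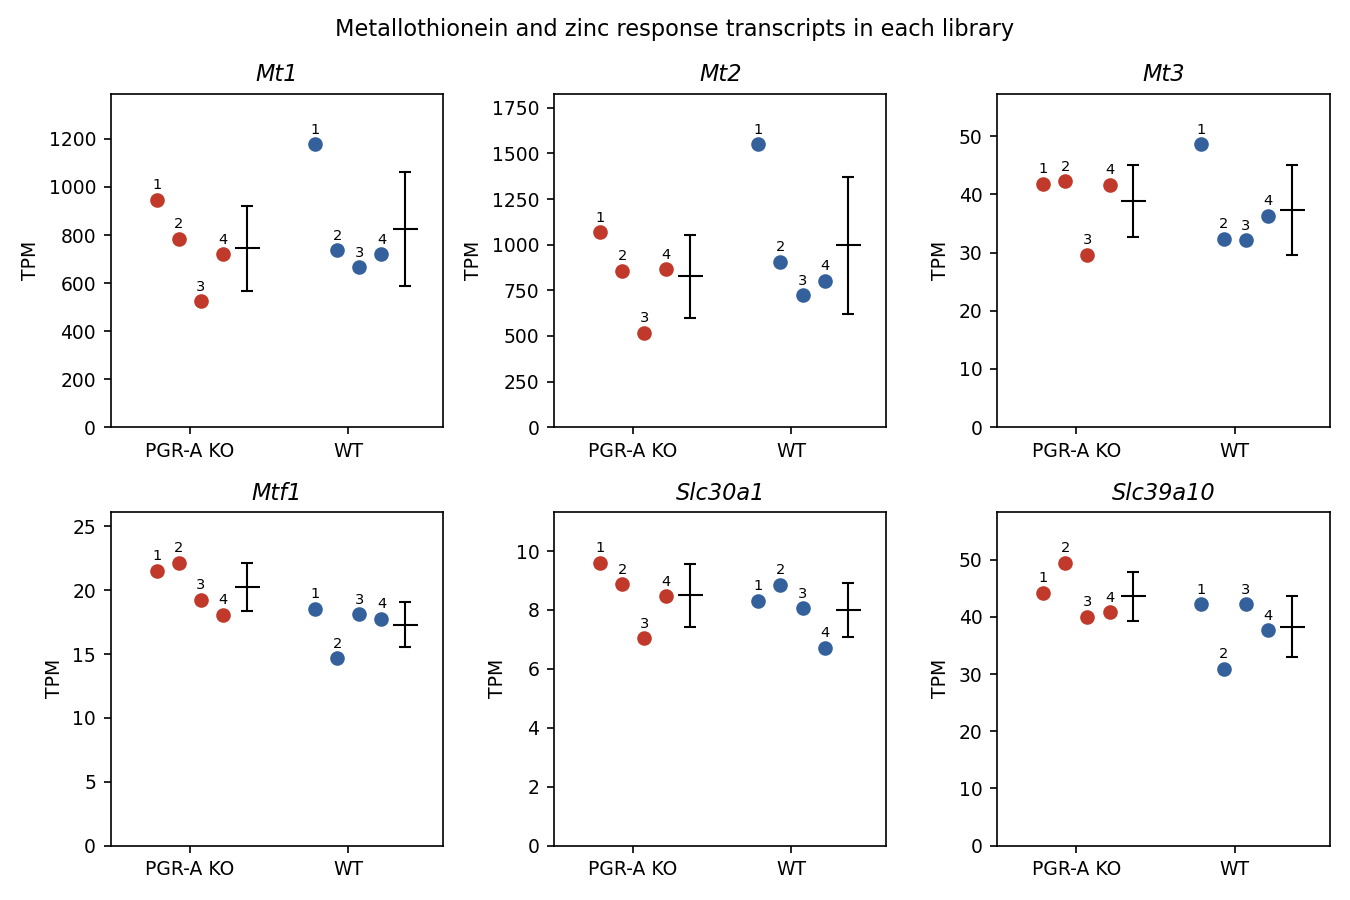
TPM of the 6 genes in each library, PGR-A KO in red at the left and WT in blue at the right, numbered by replicate; bars give the mean and SD of 4 libraries. WT replicate 1 is highest and PGR-A KO replicate 3 lowest for Mt1, Mt2 and Mt3, and the genotypes overlap in all 6 panels.

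Of the 6 genes, 0 passed the limma threshold of an adjusted p under 0.05, against 0.0138% (2 genes, both lower in PGR-A KO, so 0% higher) of the 14472 tested. At an unadjusted limma p under 0.05, 0 of the 6 passed, against 6.31% of all genes, and 0 had an exact permutation p under 0.05. The limma count depended on the scaling of the libraries. With TMM factors or quantile normalization 2 of the 6, Mtf1 and Slc39a10, had an unadjusted limma p under 0.05. So had 888 and 910 of the 14472 genes. Groups that did not overlap were found for 0 of the 6, against 3.42% of all genes, 0.601% with PGR-A KO higher and 2.82% with PGR-A KO lower. Mt3, Mtf1, Slc30a1 and Slc39a10 had higher means in PGR-A KO on the log2 scale and Mt1 and Mt2 lower ones, with a median log2 change over all genes of -0.02. Of all genes tested, 42.6% had a higher mean in PGR-A KO. These misses do not show that the genotypes are alike, since the intervals of Mt1 and Mt2 reach down to 0.645 and 0.549 times the WT level.

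The direction of Mt1 and Mt2 rested on the libraries at the ends of the order. With both set aside (PGR-A KO replicate 3, WT replicate 1), a choice made from their values, Mt1 averaged 818 ± 117 TPM for PGR-A KO, against 708 ± 37.2 TPM for WT (SD, n = 3 each). The log2 change of Mt1 was then 0.20 (limma adjusted p = 0.304) and that of Mt2 0.20 (limma adjusted p = 0.354), both turned in sign. These libraries held the lowest PGR-A KO and the highest WT values of Mt1, Mt2 and Mt3. Leaving them out can only raise the changes of these genes, so it is no test of them. Mt1 also turned without PGR-A KO replicate 3 alone (0.02) or WT replicate 1 alone (0.04). Mt3 averaged 41.9 ± 0.335 TPM for PGR-A KO, against 33.6 ± 2.36 TPM for WT (SD, n = 3 each) in those 6 libraries. Its log2 change of 0.31 then passed (limma adjusted p = 0.0434), as did 8.01% of all genes tested in that fit. Mtf1 (0.27), Slc30a1 (0.17) and Slc39a10 (0.28) kept their direction there and did not pass, with limma adjusted p of 0.188, 0.405 and 0.211.

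**Figure D3:**
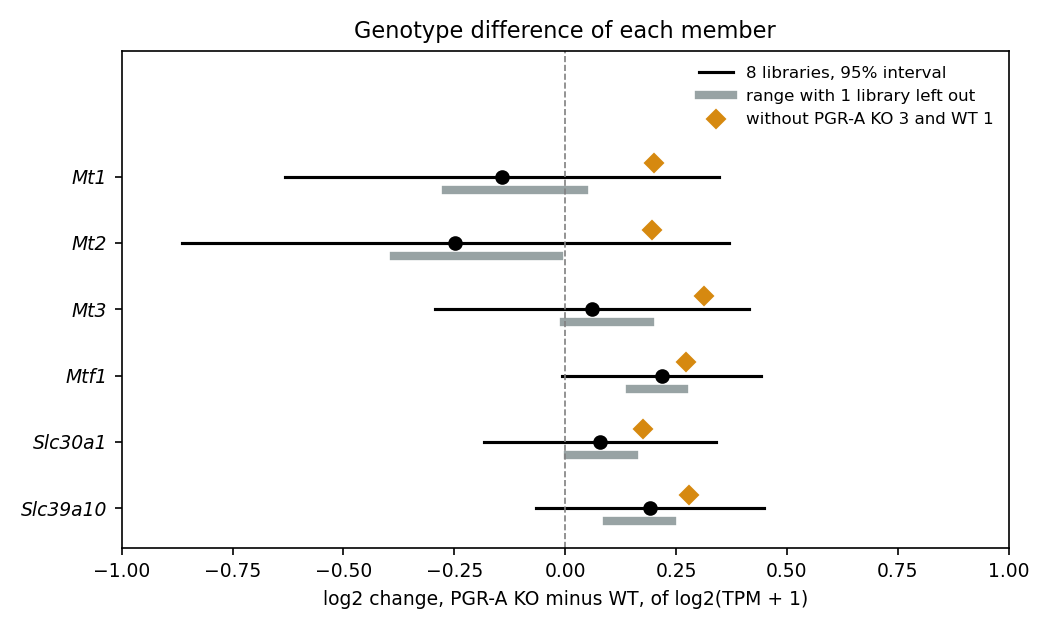
Difference in mean log2(TPM + 1) of each gene between PGR-A KO and WT: black points and lines give the 8-library value with its 95% interval, grey bars the range with 1 library left out, and diamonds the value with neither PGR-A KO replicate 3 nor WT replicate 1. The diamonds of Mt1 and Mt2 lie at 0.20, on the other side of 0 from the 8-library values of -0.14 and -0.25.

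In levels the order was Mt2, Mt1, Slc39a10, Mt3, Mtf1 and Slc30a1, with means over the 8 libraries of 911, 785, 41.0, 38.1, 18.8 and 8.25 TPM. Mt2 exceeded Mt1 in 7 of 8 libraries. In each genotype their means differed by less than the SD between libraries, though both genes rose and fell together. The ratio of Mt2 to Mt1 was 1.10 ± 0.0877 (SD, n = 4) in PGR-A KO and 1.19 ± 0.108 (SD, n = 4) in WT, with the lowest value, 0.990, in PGR-A KO replicate 3 and the highest, 1.32, in WT replicate 1. Slc39a10 and Mt3 also overlapped in level. Mtf1 stood below both and above Slc30a1 in all 8 libraries.

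The spread of Mt1, Mt2 and Mt3 between libraries of the same genotype was carried by PGR-A KO replicate 3 and WT replicate 1. Over all 8 libraries Mt2 spread more than most genes. Its within-genotype SD on the log2 scale was 0.47, above 95.2% of all genes tested and above 95.6% of the 500 genes nearest to it in level. For Mt1 the SD was 0.36, above 88.9% of all genes and 88.2% of those of like level, and for Mt3 it was 0.26, above 74.9% and 85.4%. Mtf1, Slc30a1 and Slc39a10 were near the middle, at SDs of 0.14, 0.16 and 0.17, above 38.3%, 48.2% and 54.1% of all genes. Without those 2 libraries, a recalculation chosen after seeing the data, the SD was 0.17 for Mt2, 0.15 for Mt1 and 0.07 for Mt3, above 67.8%, 61.2% and 12.6% of all genes. For Mtf1, Slc30a1 and Slc39a10 it was then 0.15, 0.14 and 0.18, above 61.8%, 55.7% and 71.7%. From the lowest to the highest of all 8 libraries Mt2 differed 2.99-fold, Mt1 2.25-fold, Mt3 1.64-fold and Slc30a1 1.43-fold.

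Mt1 and Mt2 levels moved together across the libraries. Pearson's r of log2(TPM + 1) was 0.984 (exact permutation p = 0.000248, n = 8; 0.00174 after Benjamini-Hochberg adjustment over 7 relations). Spearman's rho was 0.881 (exact permutation p = 0.00724; adjusted 0.0507). Without WT replicate 1 and PGR-A KO replicate 3, which were also farthest from the median of Mt1, r was 0.916 (exact permutation p = 0.0139) and rho 0.714 (exact permutation p = 0.136). Centred within each genotype, r over all 8 was 0.986. Among 10255 genes with a mean of at least 5 TPM, 2 had a higher r with Mt1 than Mt2 had, and 3.52% had an r above 0.9.

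The r of Mt1 and Mt2 with the zinc sensor and the transporters were lower, and none passed. Slc30a1 had an r of 0.536 with Mt1 (rho 0.595; exact permutation p = 0.164 and 0.132) and of 0.529 with Mt2 (rho 0.619; exact permutation p = 0.178 and 0.115). Mtf1 had an r of 0.182 with Mt1 (rho 0.262; exact permutation p = 0.682 and 0.536) and 0.0243 with Mt2 (rho 0.00; exact permutation p = 0.956 and 1.00). Slc39a10 had an r of 0.241 with Mt1 (rho 0.357; exact permutation p = 0.551 and 0.389) and 0.109 with Mt2 (rho 0.143; exact permutation p = 0.784 and 0.752). After adjustment over the 7 relations the lowest p of these 6 was 0.308. Without the 2 farthest libraries these r ranged from 0.0183 to 0.683, still below the 0.916 of Mt1 with Mt2. By rank, Slc30a1 was not lower there. Its rho was 0.771 with Mt2 (exact permutation p = 0.103) and higher still with Mt1 (exact permutation p = 0.0583). Both were above the rho of 0.714 of Mt1 with Mt2. The rho of Mtf1 and Slc39a10 ran from -0.0286 to 0.371. Centred within each genotype, r over all 8 ran from 0.314 (Mtf1 with Mt2) to 0.662 (Slc30a1 with Mt2). The difference between these correlations and that of Mt1 with Mt2 was not tested.

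**Figure D4:**
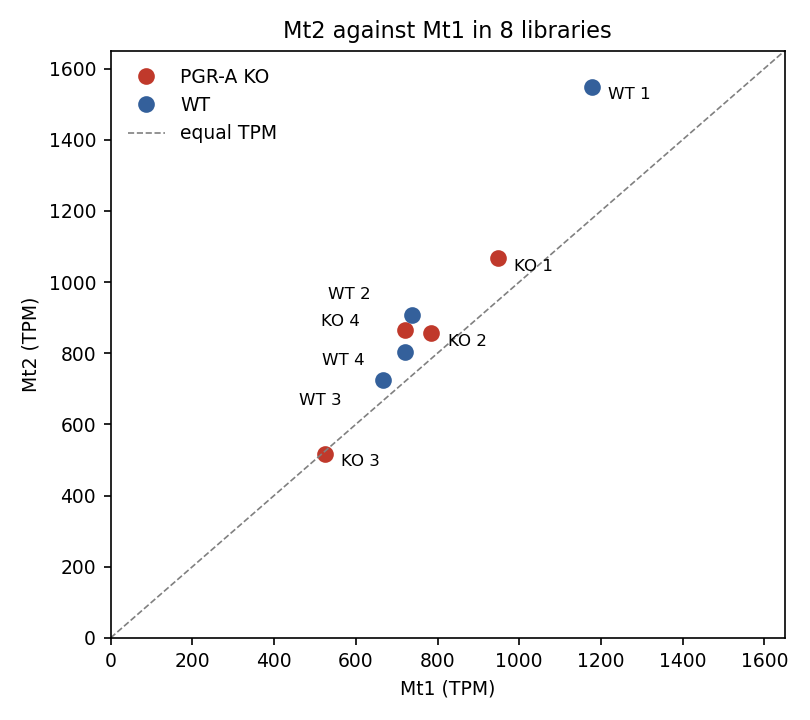
Mt2 against Mt1 in TPM, 1 point per library, PGR-A KO in red and WT in blue, with the line of equal levels dashed. Points of both genotypes are mixed along 1 line, from PGR-A KO replicate 3 at 524 and 518 TPM to WT replicate 1 at 1177 and 1549 TPM.

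The library order of the metallothioneins was shared by other genes. Mt1, Mt2 and Mt3 were each highest in WT replicate 1 and lowest in PGR-A KO replicate 3, as were 10.4% of all genes tested. Mtf1 and Slc39a10 were highest in PGR-A KO replicate 2 and lowest in WT replicate 2, and Slc30a1 was highest in PGR-A KO replicate 1 and lowest in WT replicate 4. PGR-A KO replicate 3 had the lowest granulosa marker sum of all libraries (4608 TPM), the highest oocyte sum (1368 TPM) and a macrophage sum of 111 TPM, against 53.4 to 63.0 TPM in the other PGR-A KO libraries. Inha made up 2994 TPM of that granulosa sum, which does not stand for the whole list. Among PGR-A KO libraries, Inha, Fst, Fshr, Lhcgr and Cyp11a1 were lowest in replicate 3. Amhr2 (151 TPM) and Esr2 (85.5 TPM) were highest there, and Foxl2, Inhba, Nr5a2 and Gata4 lay between. These markers were named after their values were seen. WT replicate 1 held 5669 TPM of granulosa, 827 TPM of oocyte and 83.2 TPM of macrophage markers. The part of these cells in the metallothionein levels was not tested.

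Genes whose pattern was most like each member were ranked by Pearson's r over the 8 libraries among the 10255 genes, members and unnamed gene models left out; as the highest of so many, these r have no test. Nearest to Mt1 were Ehd1 (0.988), Myh13 (0.986) and Ptpn9 (0.980), and nearest to Mt2 were Spop (0.987), Actg1 (0.986) and Sec14l2 (0.986). Ehd1, an endocytic recycling protein gene, averaged 28.9 ± 3.64 TPM for PGR-A KO, against 30.0 ± 3.39 TPM for WT (SD, n = 4 each). Actg1, which encodes a cytoplasmic actin, averaged 1852 ± 247 TPM for PGR-A KO, against 1941 ± 323 TPM for WT (SD, n = 4 each). Nearest to Mt3 were Ube2l3, Mbd2 and Ppm1d (0.985 to 0.986), to Mtf1 Mrpl12, Nrf1 and Spats2 (0.975 to 0.982), to Slc30a1 L3mbtl3, Nup62cl and Dennd5b (0.965 to 0.967), and to Slc39a10 Eml4, Clip2 and Nrf1 (0.978 to 0.980). Nrf1 was near both Mtf1 and Slc39a10.

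Of the 10 genes of the SLC30 family of zinc exporters, most of which are known to move zinc out of the cytosol, 7 passed the filter on low values. Of these, 0 passed the limma threshold. In PGR-A KO the mean was higher for 4 and lower for 3 (5 and 2 with TMM factors, quantile normalization or without mitochondrial and haemoglobin genes), with a median log2 change of 0.04. For this and the later lists, 42.6% of all genes tested had a higher mean in PGR-A KO. With those other scalings that share was 50.6%, 54.4% and 49.2%. Slc30a9, the exporter of highest level and largest change, known as a mitochondrial zinc transporter, held 92.0, 98.4, 91.6 and 88.9 TPM in PGR-A KO, against 109, 126, 101 and 97.5 TPM in WT. The groups overlapped by PGR-A KO replicate 2 and WT replicate 4 (log2 change -0.22, SE 0.09, limma adjusted p = 0.783; unadjusted 0.0319). Slc30a1 itself was the lowest of the 7 in mean level.

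Of the 14 zinc importers of the SLC39 family, which bring zinc into the cytosol, 11 passed the filter and 0 passed the limma threshold. Means were higher in PGR-A KO for 5 and lower for 6 (6 and 5 with quantile normalization), with a median log2 change of -0.04, and the groups overlapped for each of the 18 transporters tested. Of all genes tested only 3.42% did not overlap and 0.0138% passed the limma threshold, so these counts are not particular to transporters. Slc39a7, a zinc channel of the endoplasmic reticulum and the most abundant importer, averaged 162 ± 18.7 TPM for PGR-A KO, against 166 ± 9.61 TPM for WT (SD, n = 4 each). The largest change was that of Slc39a14, the importer ZIP14 known from inflammation. Slc39a14 held 46.3, 38.4, 25.5 and 34.3 TPM in PGR-A KO replicates 1 to 4, against 67.8, 51.3, 38.9 and 34.3 TPM in WT replicates 1 to 4 (log2 change -0.38, SE 0.23, limma adjusted p = 0.813). Its highest and lowest libraries were those of Mt1 and Mt2.

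**Figure D5:**
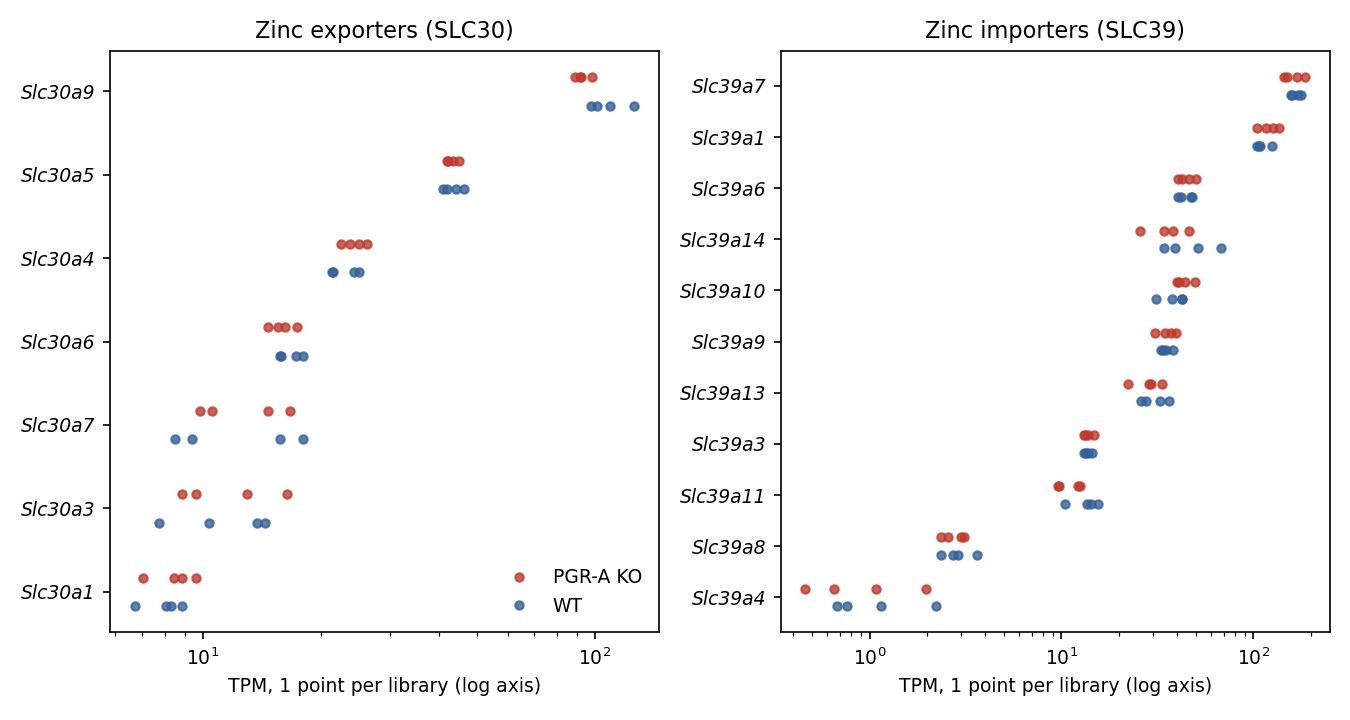
TPM of the 7 zinc exporters and 11 zinc importers tested, on log axes, 1 point per library, PGR-A KO in red above WT in blue. The groups overlap for each of the 18 transporters, where 3.42% of all genes tested do not overlap, and Slc39a10 sits in the middle of the importers.

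Of a list of 7 genes made of Mtf1 and genes known to respond to it, 6 were tested and 0 passed the limma threshold. In PGR-A KO the mean was higher for 2 and lower for 4 (3 and 3 with TMM factors), and the median log2 change was -0.07. Selenow, a selenoprotein gene and the most abundant, averaged 128 ± 7.72 TPM for PGR-A KO, against 130 ± 5.21 TPM for WT (SD, n = 4 each). Ndrg1 had the largest change, averaging 11.6 ± 3.11 TPM for PGR-A KO, against 14.3 ± 2.98 TPM for WT (SD, n = 4 each) (log2 change -0.30, limma adjusted p = 0.831). Csrp1, named after its values were seen, was the 1 gene of the list without overlap, at 27.6 to 28.6 TPM in PGR-A KO and 29.1 to 32.2 TPM in WT (limma adjusted p = 0.807). Of all genes tested 3.42% did not overlap, 2.82% with PGR-A KO lower.

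The list of the glucocorticoid receptor and its common targets, known inducers and co-responders of Mt1 and Mt2, had 12 genes tested, and 0 passed the limma threshold. In PGR-A KO the mean was higher for 8 of them and lower for 4, where 42.6% of all genes tested were higher. The median log2 change of the 12 was 0.23. Fkbp5, a chaperone of steroid receptors and the most abundant, averaged 389 ± 72.7 TPM for PGR-A KO, against 322 ± 57.0 TPM for WT (SD, n = 4 each) (limma adjusted p = 0.824). Dusp1, a phosphatase that switches off MAP kinases, had the largest change, averaging 24.1 ± 3.59 TPM for PGR-A KO, against 35.8 ± 15.1 TPM for WT (SD, n = 4 each) (log2 change -0.47, limma adjusted p = 0.807). Klf15, a transcription factor gene named after its values were seen, was the 1 gene of the list without overlap, with means of 9.18 TPM in PGR-A KO and 11.9 TPM in WT (log2 change -0.34, limma adjusted p = 0.570), against 3.42% of all genes without overlap and 2.82% so with PGR-A KO lower. Of these 12 genes 4 (33.3%) were highest in WT replicate 1 and lowest in PGR-A KO replicate 3, against 10.4% of all genes tested. The share was also 33.3% in the IL6 and STAT3 list (3 of 9) and in the list of Mtf1 (2 of 6). It was 18.2% for zinc importers, 13.3% for the NRF2 list, and 0% for zinc exporters and for copper and iron handling.

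For the NRF2 response to oxidative stress, another known inducer of Mt1 and Mt2, 15 of 15 genes were tested and 0 passed the limma threshold. In PGR-A KO the mean was higher for 12 and lower for 3, with a median log2 change of 0.07. Over all genes tested 42.6% were higher, with a median log2 change of -0.02. Prdx1, a peroxiredoxin gene and the most abundant, averaged 676 ± 19.0 TPM for PGR-A KO, against 641 ± 42.5 TPM for WT (SD, n = 4 each). Slc7a11, the cystine importer, had the largest change, averaging 75.3 ± 20.9 TPM for PGR-A KO, against 58.9 ± 23.2 TPM for WT (SD, n = 4 each) (log2 change 0.37, limma adjusted p = 0.860). Its PGR-A KO replicate 3 (44.9 TPM) lay among the WT libraries, and WT replicate 1 (92.1 TPM) above the PGR-A KO libraries.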

How the data were processed

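The authors deposited 1 table of TPM per gene symbol and library. FastQC, Salmon, limma, edgeR and the build mm10 are named without versions or roles in the submitters' processing notes. The annotation and the summing to genes have no source used here. Poly(A) RNA libraries were stranded TruSeq, sequenced in pairs, per the labels. TPM keeps no depth, so no depth or counting interval can be stated.

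The main test was limma 3.58.1 with trend (R 4.3.3) on log2 of TPM plus a pseudocount of 1. It covered the 14472 genes reaching 1 TPM in 4 or more of 8 libraries, with Benjamini-Hochberg adjustment over all of them. This scale understates changes of low genes. Single genes also had an exact permutation test. The fit was tested on simulated data. The labels do not say that replicate numbers pair the libraries, so the main fit did not pair them. The p-values reflect spread among pools of animals.

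The genes, lists and alternatives were chosen with earlier results of these data known. Named genes are the 6; Pgr; in each list the most abundant, the most changed and any called; and the 3 nearest by r. Sequences are RefSeq's; shared sequence was searched with BLASTN 2.17.0.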

Additional observations from a re-analysis of the deposited data

Results flagged for a closer look

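Among the 12 groups of 4 libraries looked at (6 genes in each genotype), 1 held a library far from the other 3 on the log2 scale, where chance gives about 0.6. This was Mt3 in PGR-A KO replicate 3, at 29.7 TPM, below the other PGR-A KO libraries at 41.7 to 42.3 TPM.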

How the results depend on the processing

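The count of 0 of the 6 genes past the threshold became 1, Mt3 with a log2 change of 0.31, with the pair PGR-A KO replicate 3 and WT replicate 1 left out. Leaving out this pair, a choice made by their values, can only raise the change of Mt3, so it is no test of Mt3. The count was 0 in the 19 other refits, with at most 2 of the 6 at an unadjusted limma p under 0.05. Those 2 were Mtf1 (0.0129 with TMM factors, 0.0112 with quantile normalization) and Slc39a10 (0.0407 and 0.0377). Of the 14472 genes tested, 888 and 910 had an unadjusted limma p under 0.05 in these refits. Over all genes the 2 calls fell to 1 at a pseudocount of 5 and numbered 16 with array weights and 1131 in the 6 libraries left. Without PGR-A KO replicate 1, 2, 3 or 4 they were 5, 1, 6 and 1, and without WT replicate 1, 2 or 4 they were 4, 0 and 1 (658 at an unadjusted p under 0.05 without WT replicate 2). The log2 change of Mt1 turned to 0.13 with array weights and 0.20 in 6 libraries, and ran from -0.27 to 0.041 with a library left out. That of Mt2 turned to 0.12 with array weights and 0.20 in 6 libraries, and ran from -0.39 to -0.014. That of Mt3 ran from -0.0030 (without WT replicate 3) to 0.19. The cause was not tested. Mtf1, Slc30a1 and Slc39a10 kept their direction in all 20 refits, at 0.15 to 0.27, 0.0066 to 0.21 and 0.094 to 0.28. The replicate block gave 2 genes over all and 0 of the 6, with limma adjusted p of 0.724 for Mt1 and 0.582 for Mt2. Deviations of libraries with the same number correlated at 0.361, -0.109, 0.393 and -0.290 for replicates 1 to 4. Pairs with different numbers ran from -0.547 to 0.429, so these values do not settle whether libraries of the same number belong together.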

Other observations

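Of genes that handle copper and iron, which metallothioneins and MTF1 also touch, 14 of 15 were tested and 0 passed the limma threshold. Means were higher in PGR-A KO for 5 and lower for 9 (8 and 6 with TMM factors or without mitochondrial and haemoglobin genes, 9 and 5 with quantile normalization). Ferritin light chain Ftl1, the most abundant, averaged 1528 ± 185 TPM for PGR-A KO, against 1533 ± 100 TPM for WT (SD, n = 4 each). Ccs, the copper chaperone of superoxide dismutase, had the largest change and was the 1 gene of the list without overlap. Ccs held 30.4, 31.7, 31.2 and 30.2 TPM in PGR-A KO replicates 1 to 4, against 32.7, 38.7, 39.5 and 38.1 TPM in WT replicates 1 to 4 (log2 change -0.26, SE 0.07, limma adjusted p = 0.721; unadjusted 0.00693). Groups did not overlap in 3.42% of all genes tested.

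IL6 and STAT3 signalling, known to induce metallothioneins in liver, had 9 genes tested and 0 past the limma threshold. In PGR-A KO the mean was higher for 7 and lower for 2, where 42.6% of all genes tested were higher. Jak1, the kinase of the IL6 receptor complex, was the most abundant, the most changed and the 1 gene without overlap. Jak1 held 159, 164, 167 and 148 TPM in PGR-A KO replicates 1 to 4, against 214, 269, 236 and 196 TPM in WT replicates 1 to 4. Each PGR-A KO library lay below each WT library (log2 change -0.51, SE 0.10, limma adjusted p = 0.433; unadjusted 0.000599). Of all genes tested 3.42% did not overlap, 2.82% with PGR-A KO lower, and 6.31% had an unadjusted limma p under 0.05.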
